A study of Rattus norvegicus with 12 samples.

Results

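The organic cation, carnitine and toxin extrusion transporters are the carriers by which tubule cells move positively charged and zwitterionic small molecules. They were taken as 7 genes: Slc22a2, Slc22a3, Slc22a4, Slc22a5, Slc22a18, Slc47a1 and Slc47a2. A gene was measured where a probe set of the array carried its symbol alone. This held for 6 of the 7 genes, each with 1 probe set, among 14218 genes named in this way. Slc47a2 had no such probe set and was not analysed here. The samples were renal cortex of 12 kidney grafts from male rats, all carried by wild-type recipients, with 1 array for each graft. In 6 grafts the kidney was wild type and in 6 it was ABCC2-/-, that is, deficient in MRP2, the pump that exports organic anion conjugates across the apical membrane. Strain, age, time after transplantation and the state of the recipients' own kidneys are not given in the sources used here. Nothing there ties the grafts to separate donors either, so the spread behind each p-value may be partly technical.

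Organic cation secretion is a relay across the proximal tubule cell. Carriers of the OCT group (Slc22a2 and Slc22a3) take cations up from the blood, driven by the membrane voltage, and carriers of the MATE group (Slc47a1 and Slc47a2) pass them into the urine in exchange for protons. Carriers of the OCTN group stand at the apical membrane, where Slc22a5 recovers filtered carnitine together with sodium and Slc22a4 carries ergothioneine and other zwitterions. MRP2 works at the same apical membrane on anions. The comparison asks whether loss of this anion pump went with a difference in the cation and carnitine carriers.

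Abcc2 served as the check of the labels. Its signal was 0.899 ± 0.0746 (SD, n = 6) in wild-type and 0.141 ± 0.0594 (SD, n = 6) in deficient grafts, at least 6.47-fold lower (limma adjusted p = 8.35e-06). This is a lower bound, since 1 deficient value was under the floor of 0.0694 and was raised to it. The deficient mean of -2.85 on the log2 scale lay under the level filter of -2.53, so the probe set passed the filter through the wild-type grafts. All 7 markers of the S1 and S2 segments of the proximal tubule were above the level filter, with a summed signal of 208 to 273 in wild-type and 203 to 231 in deficient grafts. The hepatocyte markers Alb and Apoa1 were under the filter. In bulk tissue fewer cells of a type and less RNA per cell cannot be told apart. The arrays fell into 2 sets of 6, each with 3 grafts of each genotype, by the sign of the leading component of the variation within genotypes, which held 32.6% of that variation. The component was computed without the transporters, and the sets were defined after seeing the data. No sample title names the sets, but they match the order of listing. Array set 1 holds the first 3 grafts listed of each genotype, and array set 2 the last 3. What lies behind this order was not tested. The constant by which each array had been divided was 135 to 197 in array set 1 and 104 to 138 in array set 2. The Gapdh 3′ to 5′ ratio, a measure of RNA integrity and labelling, was 1.28 to 1.36 in the deficient grafts of array set 2 and 1.64 to 1.93 in the other 9 arrays.

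No transporter passed the threshold between genotypes over all 12 arrays. In limma with Benjamini-Hochberg adjustment over 18625 probe sets, 0 of the 5 transporters above the level filter had an adjusted p under 0.05, against 4 of all probe sets, or 0.0215%. At an unadjusted p under 0.05 there was 1 of the 5, Slc22a4, and 7.98% of all probe sets (4.63% of all as lower in deficient grafts). Of the 5 differences 4 were negative and 1 positive, with a median of -0.12, where 54.6% of all tested probe sets were negative and their median was -0.023. None of the 6 measured transporters separated the genotypes fully, whereas every deficient graft lay below every wild-type graft in 0.274% and above in 0.161% of tested probe sets. Differences are given as log2 signal in deficient minus log2 signal in wild-type grafts, with the standard error (SE) of the fit.

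**Figure D1:**
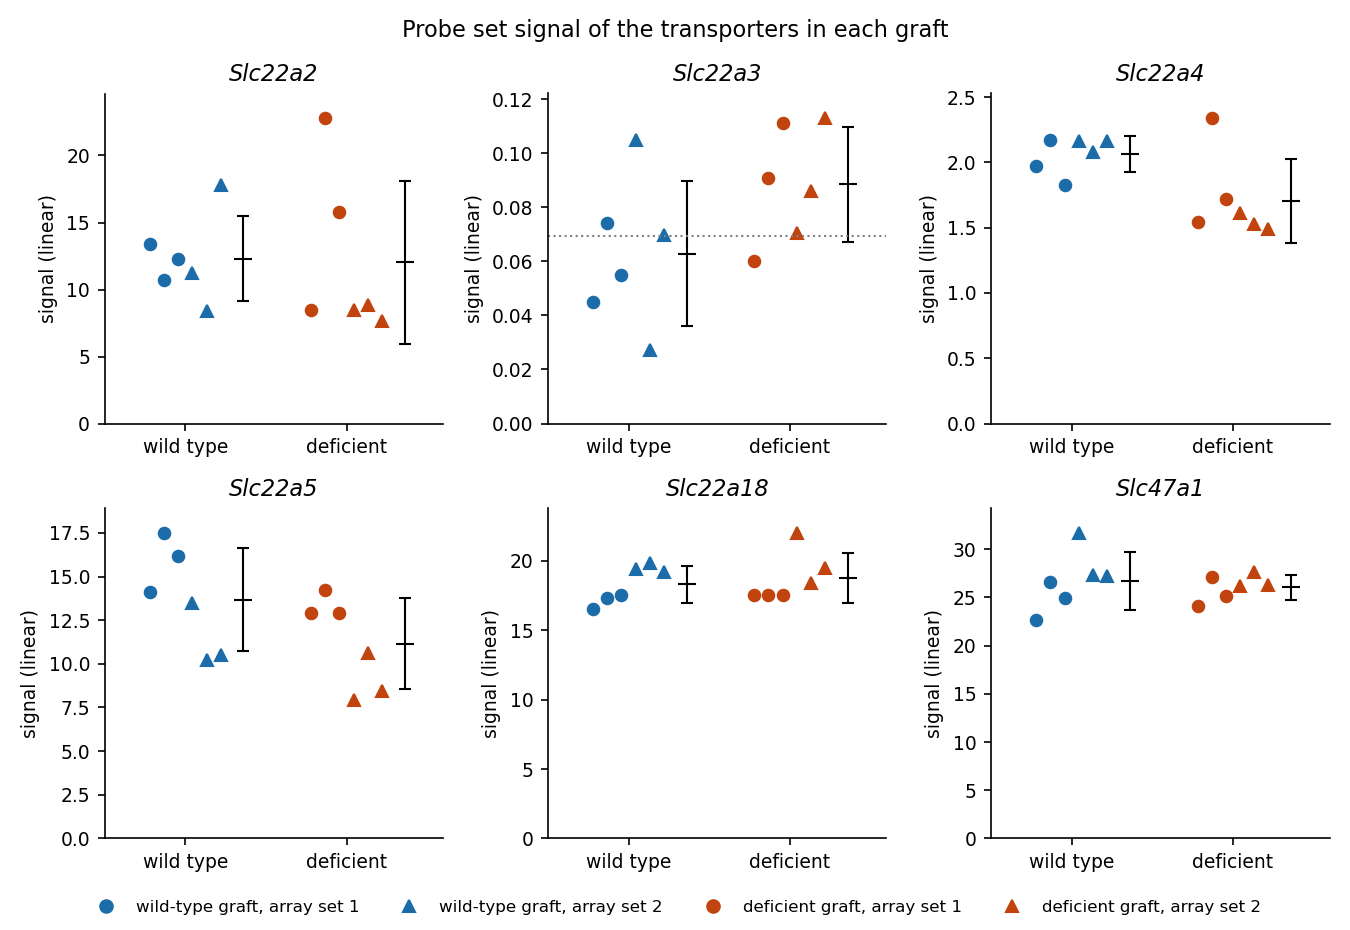
Signal of each transporter's probe set (linear scale, vertical axis) in the 6 wild-type and 6 deficient grafts, with circles for array set 1, triangles for array set 2, and the mean with its SD in black. The dotted line in the Slc22a3 panel is the floor of 0.0694, and 5 of the 6 deficient grafts have less Slc22a4 than every wild-type graft.

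Slc22a2 encodes OCT2, the main basolateral uptake carrier for cations such as metformin and creatinine in the kidney. It had the widest spread among the members above the filter. The signal in wild-type grafts was 8.37 at the lowest, 11.8 at the median and 17.8 at the highest. In deficient grafts it was 7.66 at the lowest, 8.69 at the median and 22.8 at the highest. The deficient grafts thus held both the lowest and the highest values, with replicate 9 (22.8) and replicate 11 (15.8) well above the other 4, which lay between 7.66 and 8.88. The log2 difference was -0.12 (SE 0.24, 95% confidence interval -0.64 to 0.39, adjusted p = 0.859). Without deficient replicate 9 it was -0.33 (SE 0.19, adjusted p = 0.446), and without wild-type replicate 8, the highest of its genotype, -0.0089. The SD within genotypes was 0.518 on the log2 scale, larger than in 93.2% of tested probe sets.

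The range of Slc22a2 between grafts went with that of markers of the S3 segment, the straight part of the proximal tubule that lies in the deep cortex and outer medulla. The S3 list had 4 members, of which 3 were above the filter. These were Slc7a13, an aspartate and glutamate carrier of that segment, Slc22a7, an organic anion carrier, and Acy3, an aminoacylase. The remaining member, Slc5a1, was under the filter, with a signal of 0.0516 to 0.271. Slc22a7 was dim, at 0.167 to 0.886. Slc7a13 was 52.9 in deficient replicate 9, 40.9 in deficient replicate 11 and 45.7 in wild-type replicate 8, and between 15.5 and 34.1 in the other 9 grafts. These 3 grafts also had the 3 highest Slc22a2 signals. Over the 12 grafts, with genotype means removed, Slc22a2 correlated with the mean of the 3 markers at r = 0.902 (permutation p = 9e-05) and rho = 0.776 (permutation p = 0.00432). The adjusted values over the 5 transporters compared were 0.00045 and 0.0216. The comparison with the S3 markers was added after seeing the data, and the adjustment does not cover the choice of this segment. Without the 2 grafts farthest from the median of Slc22a2, r was 0.752 (permutation p = 0.0145, adjusted p = 0.0725), so the size of the relation rests in part on those grafts. Within array set 1 r was 0.973 (permutation p = 0.00417) and within array set 2 0.773 (permutation p = 0.0556), each over 6 grafts. Removing genotype means ties the values of the grafts to each other, so these permutation p-values are approximate.

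Among other cell type markers the likeness to Slc22a2 was not shared evenly. Of 29 tested markers 4 had r over 0.8 with it, the S3 markers and Slc12a1, the sodium, potassium and chloride cotransporter of the thick ascending limb (r = 0.808). The other markers of that limb had 0.435 (Umod, uromodulin) and -0.605 (Kcnj1, a potassium channel). Calb1, a calcium-binding protein of the distal tubule, had the lowest value (r = -0.796). The 7 markers of the S1 and S2 segments lay between -0.58 for Slc22a6, an organic anion carrier, and 0.26 for Cubn, an endocytic receptor. These are descriptions over 12 points, in each of which both genes were read from the same array and tissue piece. The summed S3 signal was 44.1 to 80.2 in wild-type and 41.3 to 90.9 in deficient grafts. With the S3 mean as a covariate, a fit added after seeing the data, the Slc22a2 difference was -0.21 (SE 0.12, adjusted p = 0.541).

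**Figure D2:**
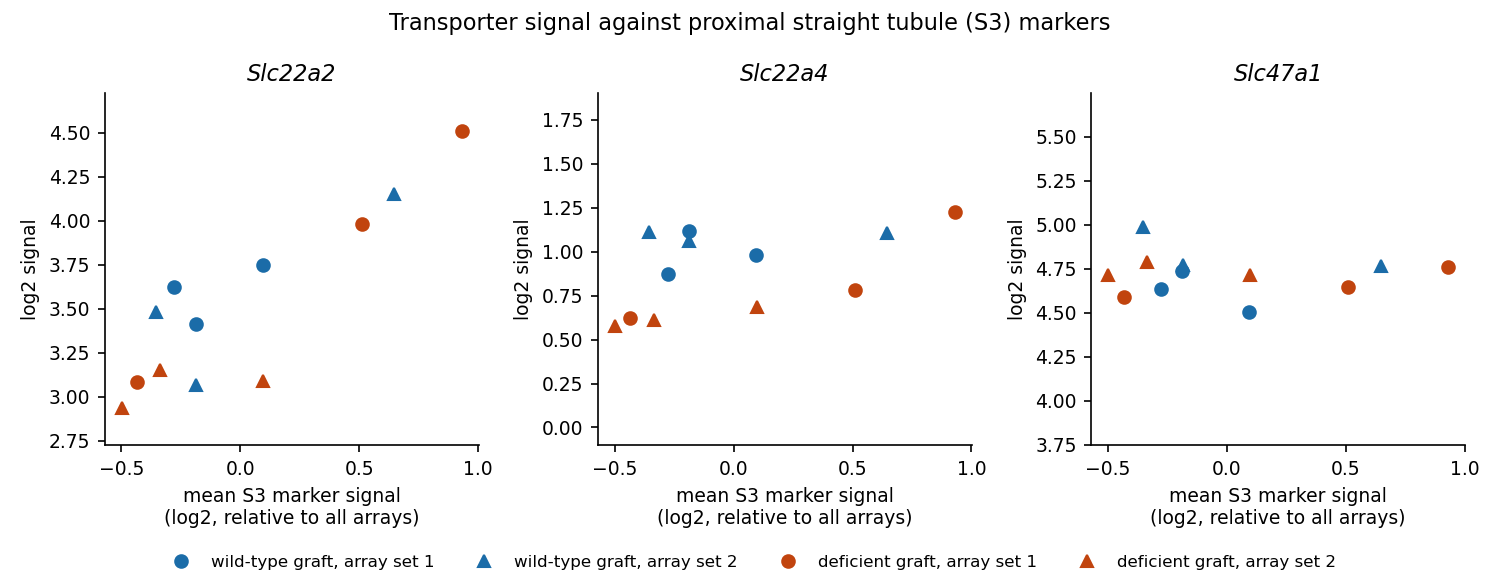
Log2 signal of Slc22a2, Slc22a4 and Slc47a1 (vertical axes, each spanning the same range) against the mean log2 signal of Slc7a13, Slc22a7 and Acy3 (horizontal axis), 1 point for each graft. Slc22a2 follows the marker mean with r = 0.902 after genotype means are removed, and Slc47a1 does not, with r = -0.0496.

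The sequence before the start of Slc22a2 is shown with those of Slc22a4 and Slc22a5, since these members held the widest spread and the lowest values relative to wild type. Each run is the 250 bases before the annotated start in RefSeq, build GRCr8, 5′ to 3′ in the direction of the gene. Capitals mark the GC box GGGCGG and the CCAAT box, each on either strand, so that a match on the other strand reads as its reverse complement. The TATA box core TATAAA, the E-box CACGTG and the androgen response motif AGAACA were also searched on both strands and had no match in these 3 windows.
Slc22a2: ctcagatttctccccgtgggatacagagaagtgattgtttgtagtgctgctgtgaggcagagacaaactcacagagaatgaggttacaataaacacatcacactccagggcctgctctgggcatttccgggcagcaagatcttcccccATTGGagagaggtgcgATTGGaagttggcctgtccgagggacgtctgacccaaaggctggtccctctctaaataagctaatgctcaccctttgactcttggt
Slc22a4: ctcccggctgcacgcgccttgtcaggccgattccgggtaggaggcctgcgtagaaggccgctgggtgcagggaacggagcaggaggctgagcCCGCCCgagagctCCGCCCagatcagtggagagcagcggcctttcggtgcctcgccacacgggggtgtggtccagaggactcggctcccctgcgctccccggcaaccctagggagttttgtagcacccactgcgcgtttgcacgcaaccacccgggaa
Slc22a5: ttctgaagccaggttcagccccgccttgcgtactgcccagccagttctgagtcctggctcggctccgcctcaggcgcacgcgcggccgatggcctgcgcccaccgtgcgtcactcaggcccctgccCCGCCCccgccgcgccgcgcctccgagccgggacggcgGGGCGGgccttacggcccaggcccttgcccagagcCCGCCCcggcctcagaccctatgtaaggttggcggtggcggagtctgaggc
The windows lie on the minus strand at chr1:50711020-50711269, chr10:38679921-38680170 and chr10:38536073-38536322. The Slc22a2 window held 2 CCAAT boxes, no GC box and 5 CpG dinucleotides, which is also the median of all 33469 such windows. The Slc22a4 window held 2 GC boxes and 22 CpG, and that of Slc22a5 3 GC boxes and 28 CpG. A GC box was in 30.5% of all windows, a CCAAT box in 34.0%, TATAAA in 12.9%, CACGTG in 5.59% and AGAACA in 17.5%. These matches describe letters and not binding sites.

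Slc22a3 encodes OCT3, a low-affinity carrier of cations and monoamines. Its probe set was dim, at the 17.0th percentile of mean level, and did not pass the level filter. The signal in wild-type grafts was 0.0272 at the lowest, 0.0625 at the median and 0.105 at the highest, and in deficient grafts 0.06, 0.0883 and 0.113. It was under the floor of 0.0694 in 3 wild-type grafts and 1 deficient graft, and the ranges overlapped. With values at the floor raised to it, the log2 difference was 0.23 (exact two-sided permutation p = 0.136), a value that the floor can understate.

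Slc22a4 encodes OCTN1, a carrier of ergothioneine and other zwitterions. It had the lowest p among the members. The signal in wild-type grafts was 1.83 at the lowest, 2.12 at the median and 2.17 at the highest, a range of 1.19-fold. In deficient grafts it was 1.49 at the lowest, 1.57 at the median and 2.34 at the highest. In 5 of the 6 deficient grafts the signal was below every wild-type graft, and in replicate 9 it was above every wild-type graft. The log2 difference was -0.29 (SE 0.11, 95% confidence interval -0.52 to -0.062), or 1.23-fold lower. The adjusted p was 0.606, and the exact two-sided permutation p of this gene alone was 0.0281. At least 5 deficient grafts lay below every wild-type graft in 1.46% of all tested probe sets.

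The Slc22a4 difference was measured with and without the grafts that stood apart. Without deficient replicate 9 it was -0.39 (SE 0.087, adjusted p = 0.340). In array set 2 the deficient grafts had 1.49 to 1.61 and the wild-type grafts 2.08 to 2.16, without overlap, as in 14.4% of tested probe sets there. The difference in that set was -0.47 (SE 0.10, limma adjusted p = 0.0205), and 6.39% of probe sets passed in the same fit, 2.71% as lower in deficient grafts. In array set 1 the deficient grafts had 1.54 to 2.34 and the wild-type grafts 1.83 to 2.17, and the difference was -0.12 (SE 0.15, adjusted p = 0.801). The test of the difference between the sets, an interaction term added after seeing the data, gave -0.35 (SE 0.18, adjusted p = 0.319), where 2.54% of probe sets passed. The low Gapdh ratios lie in the deficient grafts of array set 2, so genotype and Gapdh ratio cannot be told apart there. With the Gapdh ratio as a covariate the Slc22a4 difference was -0.24 (SE 0.12, limma unadjusted p = 0.0593, adjusted p = 0.9998). With array set as a block beside the ratio it was -0.25 (SE 0.13, limma unadjusted p = 0.072, adjusted p = 0.504).

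Slc22a4 also went with the S3 markers, less closely than Slc22a2. With genotype means removed, r was 0.757 (permutation p = 0.00254, adjusted p = 0.00635) and rho 0.65 (permutation p = 0.0259, adjusted p = 0.0646). Deficient replicate 9, with the highest S3 mean of all grafts, was the graft that lay above the others in Slc22a4. Without the 2 grafts farthest from the median, r was 0.492 (permutation p = 0.154), so the relation rests on those grafts. Within array sets r was 0.809 (permutation p = 0.0583) and 0.564 (permutation p = 0.256). With genotype means removed, these permutation p-values are approximate, and this comparison too was added after seeing the data. With the S3 mean as a covariate the Slc22a4 difference was -0.32 (SE 0.092, unadjusted p = 0.00328, adjusted p = 0.470).

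Slc22a5 encodes OCTN2, the sodium-dependent carnitine carrier whose loss causes systemic carnitine deficiency. The signal in wild-type grafts was 10.2 at the lowest, 13.8 at the median and 17.5 at the highest. In deficient grafts it was 7.91 at the lowest, 11.8 at the median and 14.2 at the highest. The ranges overlapped, and 2 deficient grafts lay below every wild-type graft. The log2 difference was -0.30 (SE 0.16, 95% confidence interval -0.64 to 0.046, adjusted p = 0.628), close in size to that of Slc22a4, its neighbour on chromosome 10 with 1 protein-coding gene between. The log2 ratio of Slc22a4 to Slc22a5 differed by 0.0057 between genotypes (exact two-sided permutation p = 0.968, adjusted p = 0.968 over 2 ratios), with an SD between grafts of 0.362 in wild-type and 0.283 in deficient grafts.

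Most of the spread of Slc22a5 lay between the array sets. In wild-type grafts it was 14.1 to 17.5 in array set 1 and 10.2 to 13.5 in array set 2, and in deficient grafts 12.9 to 14.2 and 7.91 to 10.6. In each genotype the sets thus did not overlap, and 76.9% of the variance within genotypes lay between them, against a median of 43.0% over all tested probe sets. With the array set as a block the difference was -0.30, which the block cannot change, since each set holds equal numbers of both genotypes. Its SE was 0.086 (limma adjusted p = 0.0954), in a fit where 0.601% of probe sets passed and 0.397% as lower. The sets were split along the leading variation within genotypes, so a smaller SE follows in part from that choice. It was -0.25 within array set 1 (adjusted p = 0.303) and -0.34 within array set 2 (adjusted p = 0.123). With the Gapdh ratio as a covariate it was -0.068 (SE 0.14), and with both it was -0.25 (SE 0.11, adjusted p = 0.422), in a fit where 0.0161% of probe sets passed.

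**Figure D3:**
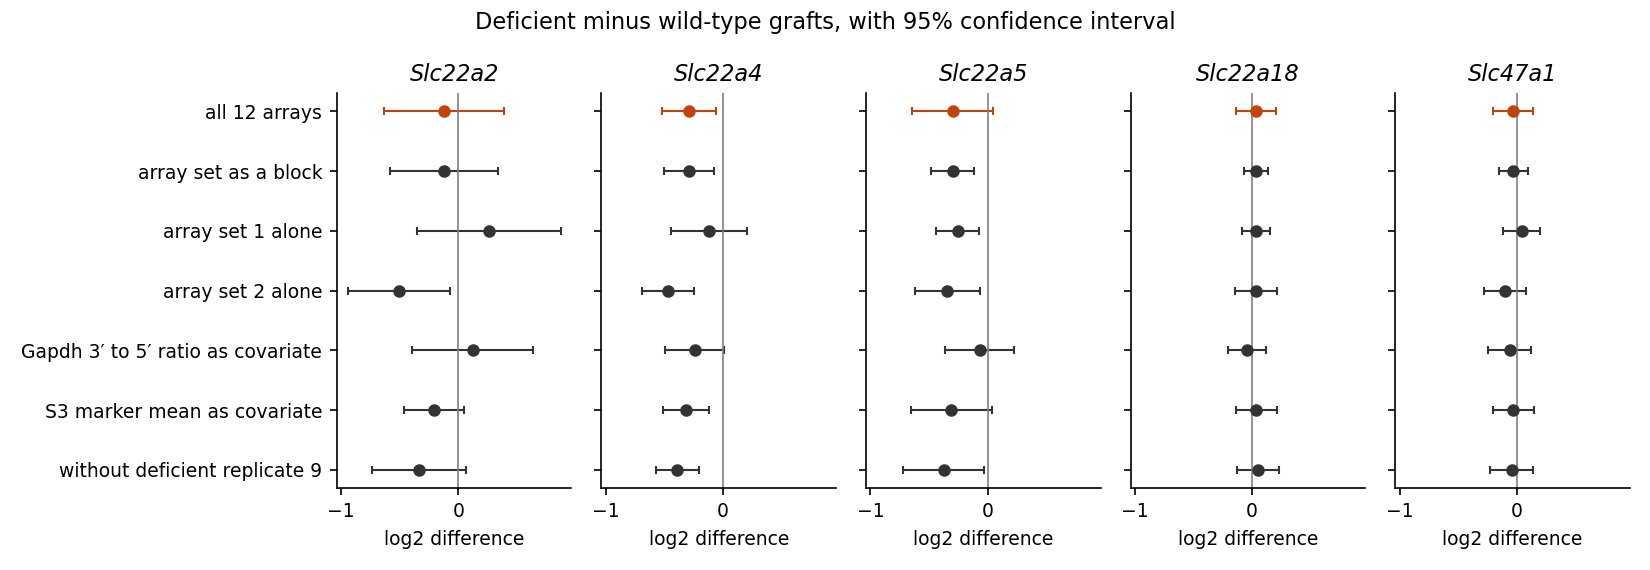
Log2 difference between deficient and wild-type grafts (horizontal axes) with its 95% confidence interval for the 5 transporters above the level filter, under 7 settings. Slc22a4 keeps a negative value in each of these settings, from -0.12 in array set 1 to -0.47 in array set 2, while Slc22a2 turns from -0.51 in array set 2 to 0.26 in array set 1.

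Slc47a1 encodes MATE1, the proton exchanger that completes cation secretion at the apical membrane. The signal in wild-type grafts was 22.7 at the lowest, 26.9 at the median and 31.7 at the highest, and in deficient grafts 24.1, 26.3 and 27.6. All deficient values lay within the wild-type range. The log2 difference was -0.030 (SE 0.081, adjusted p = 0.896). Its 95% confidence interval of -0.20 to 0.14 bounds the fold between 0.870 and 1.10. The log2 ratio of Slc22a2 to Slc47a1, uptake against efflux, differed by -0.093 between genotypes (exact two-sided permutation p = 0.768), with an SD of 0.43 in wild-type and 0.63 in deficient grafts.

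Slc22a18 is an imprinted gene in the growth-control cluster of Cdkn1c and Phlda2, and encodes a carrier whose substrates are poorly defined. It lies on chromosome 1, as does Abcc2, with 604 protein-coding genes between. The signal in wild-type grafts was 16.5 at the lowest, 18.3 at the median and 19.8 at the highest, and in deficient grafts 17.5, 18.0 and 22. The ranges overlapped, and the log2 difference was 0.033 (SE 0.080, 95% confidence interval -0.14 to 0.20, adjusted p = 0.887). It was -0.024 with each array centred on its median. In array set 1 all 6 values lay between 16.5 and 17.5, and in array set 2 between 18.4 and 22, the opposite order to Slc22a5.

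The members varied together in ways that depended on the array sets. With genotype means removed and within array set 1, Slc22a5 and Slc47a1 had r = 0.970 (permutation p = 0.00139, adjusted p = 0.0139 over 10 pairs) and rho = 1.0 (permutation p = 0.00278). Within array set 2 they had r = 0.883 (permutation p = 0.0319, adjusted p = 0.319) and rho = 0.771. Across both sets the value was r = -0.234, and mean Slc22a5 was lower and mean Slc47a1 higher in array set 2 than in array set 1 in both genotypes. Slc22a5 and Slc22a18 had r = 0.783 within array set 1 (permutation p = 0.05), -0.631 within array set 2 (permutation p = 0.181) and -0.845 over all grafts, where the sets form separate clusters. For Slc22a2 and Slc22a4 r was 0.741 over all grafts (permutation p = 0.00733, adjusted p = 0.0366). Their rho was 0.587 (permutation p = 0.0484, adjusted p = 0.173). Without the 2 grafts farthest from the median r was 0.266, so that relation rests on those grafts. Within array sets it was 0.771 and 0.440. Removing genotype means ties the values of 6 grafts to each other, so these within-set p-values are approximate.

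**Figure D4:**
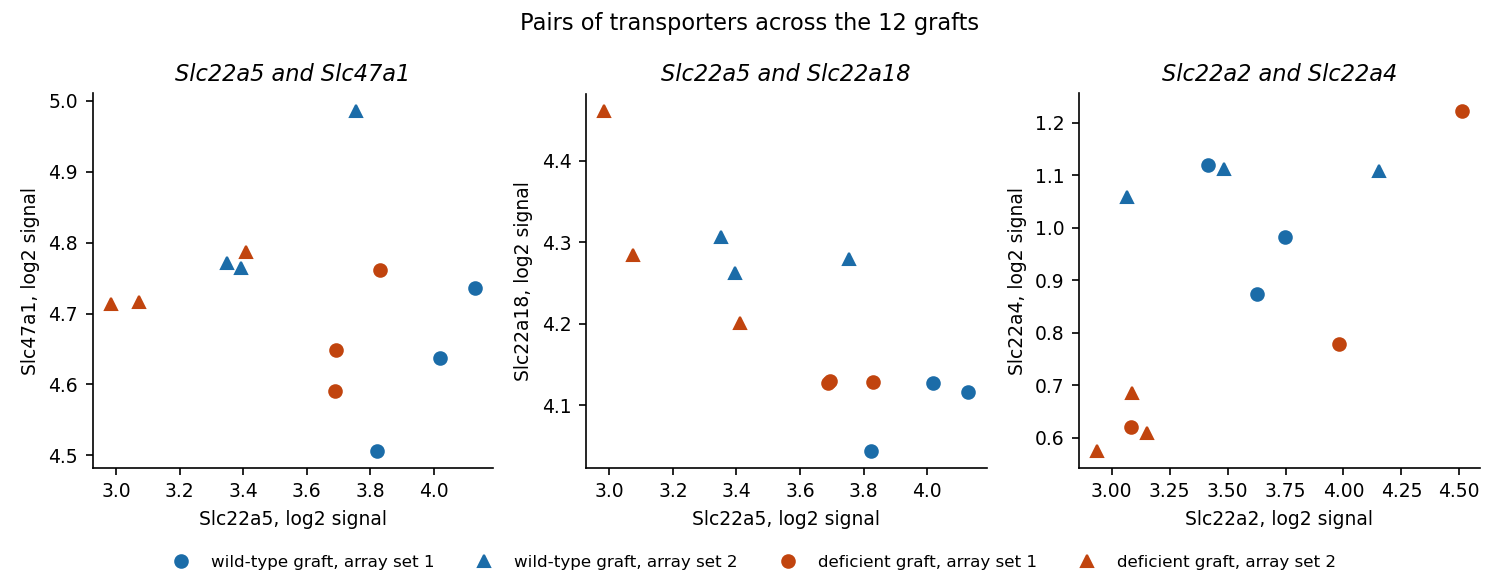
Log2 signals of 3 pairs of transporters, 1 point for each graft, with circles for array set 1 and triangles for array set 2. The points are plotted without removing genotype means. With these means removed, Slc22a5 and Slc47a1 had r = 0.970 within array set 1 and 0.883 within array set 2. For Slc22a5 with Slc22a18 the sets form separate clusters.

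The genes whose pattern over the 12 grafts was most like each member were chosen by Pearson correlation with genotype means removed, among 10638 other genes. Values within an array set come from the grafts used for this choice, so high ones follow in part from it. For Slc22a2 they were Melk (r = 0.975) and Albfm1 (r = 0.972), with 0.979 and 0.984 in array set 1 and 0.938 and 0.913 in array set 2. For Slc22a4 they were Sec16b (r = 0.917, but 0.2 in array set 2) and Tmbim1 (r = 0.897). For Slc47a1 they were Eci1, a mitochondrial enzyme of fatty acid oxidation (r = 0.907, and 0.928 and 0.932 within the sets), and Tmem192 (r = 0.890). Slc22a5 was most like Pold3 (r = 0.968) and Dr1 (r = 0.967), and Slc22a18 most like Nhp2 (r = 0.955) and Mtx1 (r = 0.953, but -0.340 in array set 1). As many as 922 genes had r over 0.8 with Slc22a5, 487 with Slc22a18 and 205 with Slc22a2, against 47 with Slc22a4 and 40 with Slc47a1.

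Genes that work with these transporters did not pass the threshold either. In 5 lists with 30 tested genes, 0 passed in limma, against 0.0215% of all tested probe sets, and 1 (3.33%) had an unadjusted p under 0.05, against 7.98%. The differences were negative in 19 (63.3%) and positive in 11, where 54.6% of all tested probe sets were negative. The list of other cation, choline and thiamine carriers also held Slc19a1, a folate carrier. Of its 9 tested genes 7 had a negative difference (median -0.18). The Slc22 family member Slc22a15 had -0.31 (SE 0.17), and the choline-like transporter family member Slc44a4 had -0.18 (SE 0.098). Of 8 tested genes of carnitine synthesis and of the carnitine shuttle, which carries fatty acids into mitochondria, 6 had a negative difference (median -0.11). Crat, the carnitine acetyltransferase, had -0.30 (SE 0.16) and Cpt2, the inner mitochondrial carnitine palmitoyltransferase, -0.19 (SE 0.12).

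The scaffold and gradient list held 4 positive and 3 negative differences among 7 tested genes (median 0.017). Nherf2 and Nherf1, PDZ-domain proteins that anchor apical transporters, had -0.31 (SE 0.15) and -0.18 (SE 0.084). Of 3 tested transcription factors Hnf4a, a regulator of proximal tubule identity, had -0.11 (SE 0.076) and Sp1, which binds GC boxes, -0.040 (SE 0.081). Of 3 tested genes of creatine handling Slc6a8, the creatine transporter, had -0.145 (SE 0.072) and Gamt, which completes creatine synthesis, 0.095 (SE 0.14). The lowest adjusted p in these 5 lists was 0.617.

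**Figure D5:**
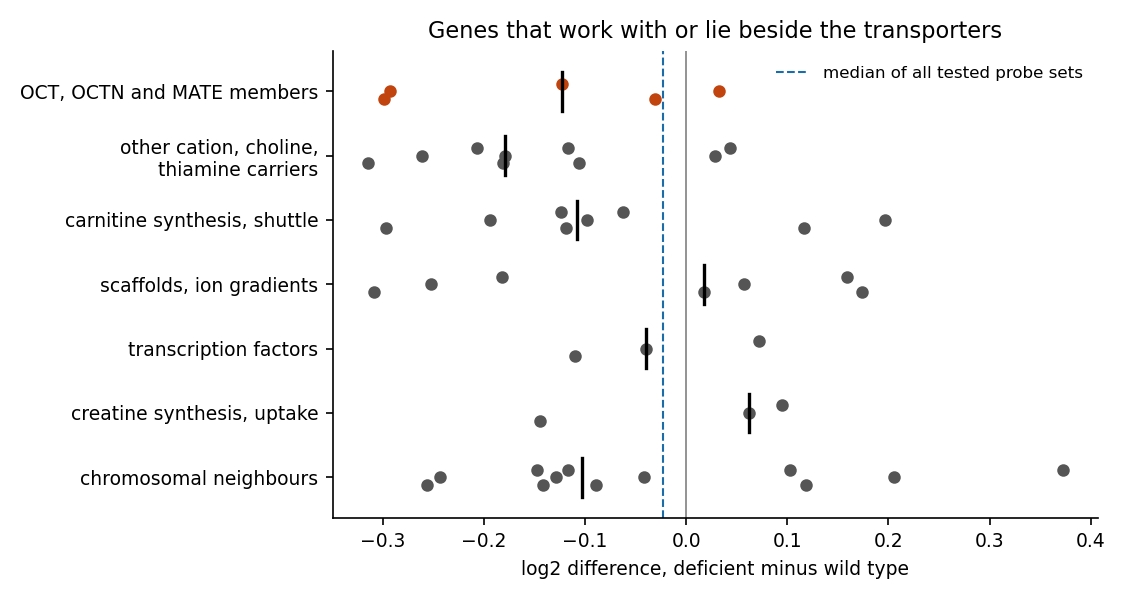
Log2 difference between deficient and wild-type grafts for each tested gene (points) of the transporters and of 6 lists of related or neighbouring genes, with the median of each list as a black bar and the median of all tested probe sets, -0.023, as a dashed line. No point passed the threshold, and the values lie between -0.31 and 0.37.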

How the data were processed

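Labelled RNA of renal cortex was hybridised to Affymetrix 3′ expression arrays, per the labels' protocols. Each deposited value is a linear intensity of a probe set, and MAS5 and GCOS are named in the submitters' processing notes. The values show that every array was divided by its own constant, of unstated basis, and 3.56% of them were at 0.01.

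From these, 57 control probe sets were left out, the pooled 20th percentile (0.0694) served as a floor, and values were put on the log2 scale. Probe sets at or above the 40th percentile of mean log2 signal (18625 of 31042) were tested with limma 3.58.1 in R 4.3.3 (lmFit, eBayes with trend), with genotype alone in the model and p-values adjusted by Benjamini-Hochberg at 0.05. Raising low values understates differences of dim genes. The array medians ran from -0.167 to 0.0532 (log2). The number of arrays limits the precision. Ratios were compared by exact permutation of the 12 arrays, where the smallest possible p is 0.00216. The fit was tested on simulated data. Slc22a2 with Slc22a3 and Slc47a1 with Slc47a2, also planned as ratios, could not be measured. Alternatives changed floor, filter, normalization, variance model, weights, covariates and arrays. The members and lists were chosen with earlier results of these data known. Named genes were all members, Abcc2, the 2 genes of lowest p in each list where none passed, the 2 genes most like each member, and the cell type markers. Probe sets were named through the platform annotation, with symbols updated to GRCr8. Correlations used 100000 permutations, or all orders for 6 arrays, of values with genotype means removed, so their p-values are approximate.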

Additional observations from a re-analysis of the deposited data

Results flagged for a closer look

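Slc22a4 in deficient replicate 9 stood apart from the other deficient grafts, at a signal of 2.34 against 1.49 to 1.72 in the other 5. The gap to the nearest graft took up more of the range than Dixon's test allows for 6 samples. Chance alone marks about 1 in 20 groups, and 1 of 14 groups of 6 arrays was marked here. The same graft had the highest S3 marker mean and the highest Slc22a2 signal of all 12, and what sets it apart was not tested.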

How the results depend on the processing

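Over all alternatives Slc22a4 and Slc22a5 kept a negative difference, and no member passed the threshold except Slc22a4 in array set 2. Changes of floor, level filter and variance model, and the block, cannot move these differences and left both unchanged. Among the others the weakest were -0.12 for Slc22a4 in array set 1 and -0.068 for Slc22a5 with the Gapdh ratio as a covariate. With 1 array left out at a time the differences ranged from -0.39 to -0.26 for Slc22a4, -0.38 to -0.21 for Slc22a5, -0.33 to -0.0089 for Slc22a2, -0.015 to 0.056 for Slc22a18 and -0.076 to 0.020 for Slc47a1. The array sets had been planned from array measures such as the constants, which overlapped, so the sets used were chosen after seeing the data.

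The number of probe sets past the threshold was 4, and it was 2 with the level filter at the 60th percentile, 112 with array set as a block, 1190 in array set 2 alone and 3 to 5 with 1 array left out. In array set 2 alone, where 6.39% of all tested probe sets passed, 1 transporter, Slc22a4 (-0.47), and 5 list genes passed. The list genes were Slc44a4 (-0.40), Slc19a1 (-0.57), Crat (-0.46), Nherf2 (-0.56) and Fxyd2 (0.30), with Slc19a1 and Fxyd2 named after their values were seen. All deficient grafts of that set had the low Gapdh ratios, so genotype and Gapdh ratio cannot be told apart there. The sign turned for Slc22a2 in array set 1 (0.26), with the Gapdh ratio (0.12) and with block and Gapdh ratio (0.046). It turned for Slc47a1 in array set 1 (0.041) and with block and Gapdh ratio (0.020), and for Slc22a18 with centred arrays (-0.024) and the Gapdh ratio (-0.041). It also turned for Sp1 with quantile normalization (0.0089) and in array set 2 (0.080), for Slc44a4 in array set 1 (0.037) and for Gamt with the Gapdh ratio (-0.032). The causes were not tested.

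The correlation of Slc22a2 with Slc22a4 was 0.771 in array set 1, 0.440 in array set 2 and 0.266 without the 2 farthest arrays. In array set 1 that of Slc22a2 with Slc47a1 turned to 0.377, of Slc22a5 with Slc22a18 to 0.783 and of Slc22a5 with Slc47a1 to 0.970. In array set 2 the values were -0.0417 for Slc22a4 with Slc22a5, 0.633 for Slc22a4 with Slc22a18, -0.631 for Slc22a5 with Slc22a18, 0.883 for Slc22a5 with Slc47a1 and -0.255 for Slc22a18 with Slc47a1. Without the 2 farthest arrays they were -0.165 for Slc22a4 with Slc22a5, 0.275 for Slc22a4 with Slc22a18 and -0.758 for Slc22a5 with Slc22a18. With the S3 mean the sign turned for Slc22a5 in array set 2 (-0.492) and with Slc7a13 alone (-0.00684), for Slc22a18 in the same settings (0.312 and 0.0169), and for Slc47a1 in array set 1 (0.369), without the 2 farthest arrays (0.278) and with Slc7a13 alone (0.077). The ratio difference turned to -0.125 in array set 2 for Slc22a4 over Slc22a5 and to 0.221 in array set 1 for Slc22a2 over Slc47a1, and with 1 array left out they ranged from -0.083 to 0.089 and from -0.29 to 0.015.

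No paired analysis was possible because the genotypes share 1 replicate number. Other probe sets of a member could not be tried, since each has 1. With 6 arrays in each genotype, small differences of variable genes such as Slc22a2 are not detectable, and Slc22a3 is limited by a signal near the floor.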

Other observations

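The genes that lie beside the transporters gave a mixed picture. Of 14 listed neighbours 12 were tested, 8 with a negative and 4 with a positive difference (median -0.10), where 54.6% of all tested probe sets were negative. None passed in limma, against 0.0215% of all, and 2 had an unadjusted p under 0.05, against 7.98% of all. Nap1l4, a histone chaperone gene near Slc22a18, had -0.26 (SE 0.086, adjusted p = 0.606). Aldh3a2, the fatty aldehyde dehydrogenase next to Slc47a2, had -0.24 (SE 0.11, adjusted p = 0.624). Phlda2, the imprinted neighbour of Slc22a18, had 0.37 (SE 0.25) and Cdkn1c, the imprinted cell cycle inhibitor on its other side, 0.10 (SE 0.10). Igf2r, near Slc22a2, had 0.21 (SE 0.12). Phlda2, Cdkn1c and Igf2r were named after their values were seen.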
